A study of Macaca mulatta with 25 samples.

Results

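N-glycosylation is the attachment of a branched sugar chain to asparagine residues of proteins that enter the secretory pathway. The chain is first built on the lipid dolichol at the membrane of the endoplasmic reticulum, from activated mannose, glucose and N-acetylglucosamine (GlcNAc), and is then moved as a whole to the growing protein by the oligosaccharyltransferase complex. Enzymes of the endoplasmic reticulum trim it while the protein folds, and enzymes of the Golgi trim and branch it further. The glands of the cervix secrete mucus whose mucins and other proteins carry such chains.

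The genes described here were the 52 genes with 1 symbol that matched a fixed pattern of symbols of this pathway, out of 15534 genes with 1 symbol on the array. Each of them was read by 1 probe set. By role they were 4 genes of UDP-GlcNAc synthesis, 7 of the mannose donors, 4 of dolichol synthesis, 12 of the assembly of the lipid-linked chain, 8 of the oligosaccharyltransferase, 6 of trimming and the folding check in the endoplasmic reticulum, and 11 of trimming and branching in the Golgi. Of a written list of 64 genes of these roles, 12 were not among the members, and the oligosaccharyltransferase subunit DDOST was one of them. Over all arrays, 49 of the 52 had a mean at or above the 40th percentile of all probe sets, 5.09 on the log2 scale, and MGAT4D, MGAT4F and MGAT5B lay below it. ALG10 has a near-identical gene copy, ALG10B, that its probe set may also read.

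Cervix came from 25 adult rhesus macaques without ovaries, 5 in each of 5 groups, with 1 array per animal. Every animal carried an estradiol implant. E2 animals had 14 days of estradiol and no progesterone. In E+1P animals a progesterone implant was in place for 1 day, in E+3P animals for 3 days, in E+7P animals for 7 days and in E+14P animals for 14 days. How long estradiol lasted in the animals with progesterone is not stated in the labels, so a longer exposure to estradiol and the exposure to progesterone cannot be told apart. Hormones were given to animals that make none in the ovary, which models the cycle without its other ovarian products.

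Of the marker genes of cervical tissue, WFDC2 and EPCAM of columnar epithelium and KRT5 of squamous epithelium were measured at means of 11.68, 9.09 and 8.63 on the log2 scale. A mean over 23 columnar epithelium genes was 7.29 to 8.10 in E2, 7.84 to 8.03 in E+1P, 5.38 to 7.995 in E+3P, 7.34 to 7.72 in E+7P and 6.73 to 7.76 in E+14P. A set of 4 arrays, those of replicates 2 and 3 in E+3P and of replicates 4 and 5 in E+14P, stood apart in the makeup of the epithelium, by over 4 scaled median absolute deviations in a squamous, columnar or ciliated list. Of the 23 columnar genes 6 were lower and 1 higher in E+3P than in E2. Squamous genes, 19 measured, averaged 4.64 to 10.04 in E+3P, 4.92 to 5.48 in E+7P and 5.03 to 8.37 in E+14P, against 4.76 to 7.12 in E2. Smooth muscle genes, 19 measured, averaged 6.28 to 8.94 in E+3P, 6.25 to 8.37 in E+7P and 6.54 to 8.45 in E+14P, against 6.10 to 7.97 in E2. Of the 19 smooth muscle genes 0 were called against E2, and 2, 19, 17 and 19 had a change above 0 at the 4 times. Their median changes were -0.38, 1.10, 0.38 and 0.71. Ciliated cell genes, 19 measured, averaged 6.22 to 7.36 in E2, 6.18 to 6.92 in E+1P, 4.54 to 6.62 in E+3P, 6.24 to 6.44 in E+7P and 4.74 to 6.59 in E+14P. Of these 19 ciliated genes 0, 7, 2 and 3 were lower at the 4 times and 0 higher, with median changes of -0.30, -1.298, -0.42 and -0.93 relative to E2. Means over 12 genes of B and plasma cells and over 14 genes of cell division overlapped between every progesterone group and E2. In whole tissue, fewer cells of a type and less RNA per cell cannot be told apart.

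At each of the 4 times more N-glycosylation genes were called lower than higher, and the oligosaccharyltransferase subunits were the role with the largest share of calls. A change is the mean log2 signal of a progesterone group minus that of E2, with its standard error, and was called where the adjusted p was under 0.05. After 1 day 5 of the 52 members were lower and 0 higher, where 1.47% of all named genes were lower and 2.09% higher. After 3 days 21 were lower and 1 was higher, where 7.16% of named genes were lower and 5.03% higher. After 7 days 17 were lower and 0 higher, against 3.58% of named genes lower and 2.27% higher. After 14 days 13 were lower and 0 higher, against 3.53% and 2.26%. Among named genes at or above the 40th percentile of signal, where most members lie, 1.94%, 9.76%, 4.86% and 4.72% were lower at the 4 times. The median change of the members was -0.15 in E+1P, -0.25 in E+3P, -0.31 in E+7P and -0.25 in E+14P, where the median over all named genes was -0.00, 0.05, 0.02 and 0.03. A change below 0, called or not, was seen in 44, 42, 44 and 43 of the 52 members. All 5 animals lay below every E2 animal for 8, 15, 17 and 18 members at the 4 times, where 3.54%, 4.17%, 4.68% and 3.99% of named genes did so. With 1 animal left out, the count of members called in E+1P was 3 without E2 replicate 2 or 5 or E+1P replicate 3 or 4, and that in E+7P was 11 without E2 replicate 2. The 4 comparisons share the 5 E2 animals and are not independent of each other.

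**Figure D1:**
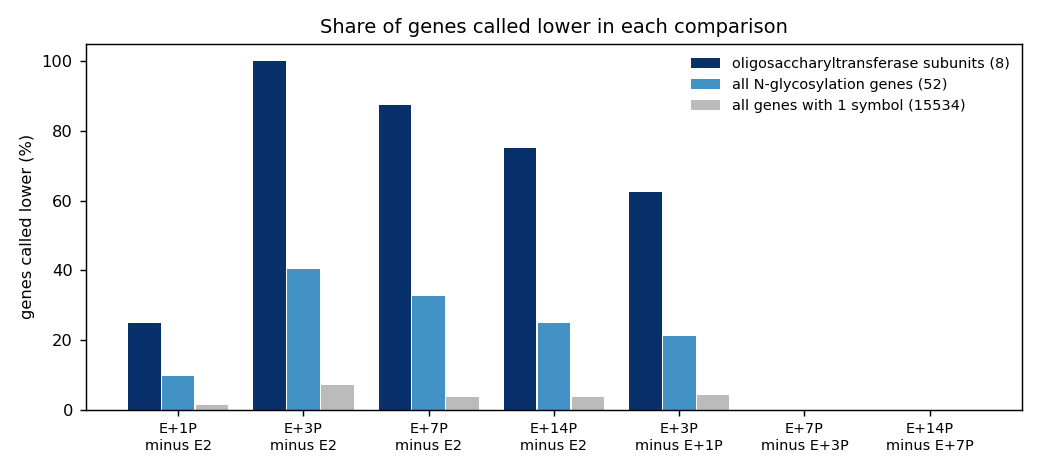
Share of genes called lower, in percent, in each of 7 comparisons, for the 8 oligosaccharyltransferase subunits, all 52 N-glycosylation genes and all 15534 genes with 1 symbol. The share of subunits is 100% in E+3P minus E2, and the last 2 comparisons have no gene called lower in any of the 3 sets.

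Across the 4 times, 23 members were lower at 1 or more times, 12 of them at all 3 later times, and 28 members were called at no time. These counts were not made over all named genes, so no share stands beside them. A joint F test of all 4 times against E2 called 18 of the 52, where it called 12% of named genes and 15.8% of those at or above the 40th percentile. The highest of the 5 group means was that of E2 for 33 members, and the lowest was that of E+3P for 23. Ranks of the group means were likewise not counted over all named genes. Between consecutive times, E+3P was lower than E+1P for 11 members and higher for 0, where 4.13% of named genes were lower (5.62% at or above the 40th percentile) and 1.76% higher. Under limma no member was called between E+7P and E+3P or between E+14P and E+7P, where 0.00644% and 0% of named genes were called. At an unadjusted p under 0.05 there were 4 and 4 of the 52 members, and 1900 and 576 of the 15534 named genes. Tested against a minimum change of 1.5-fold, the call of ALG14 in E+3P was the only one kept in any of the 7 comparisons.

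**Figure D2:**
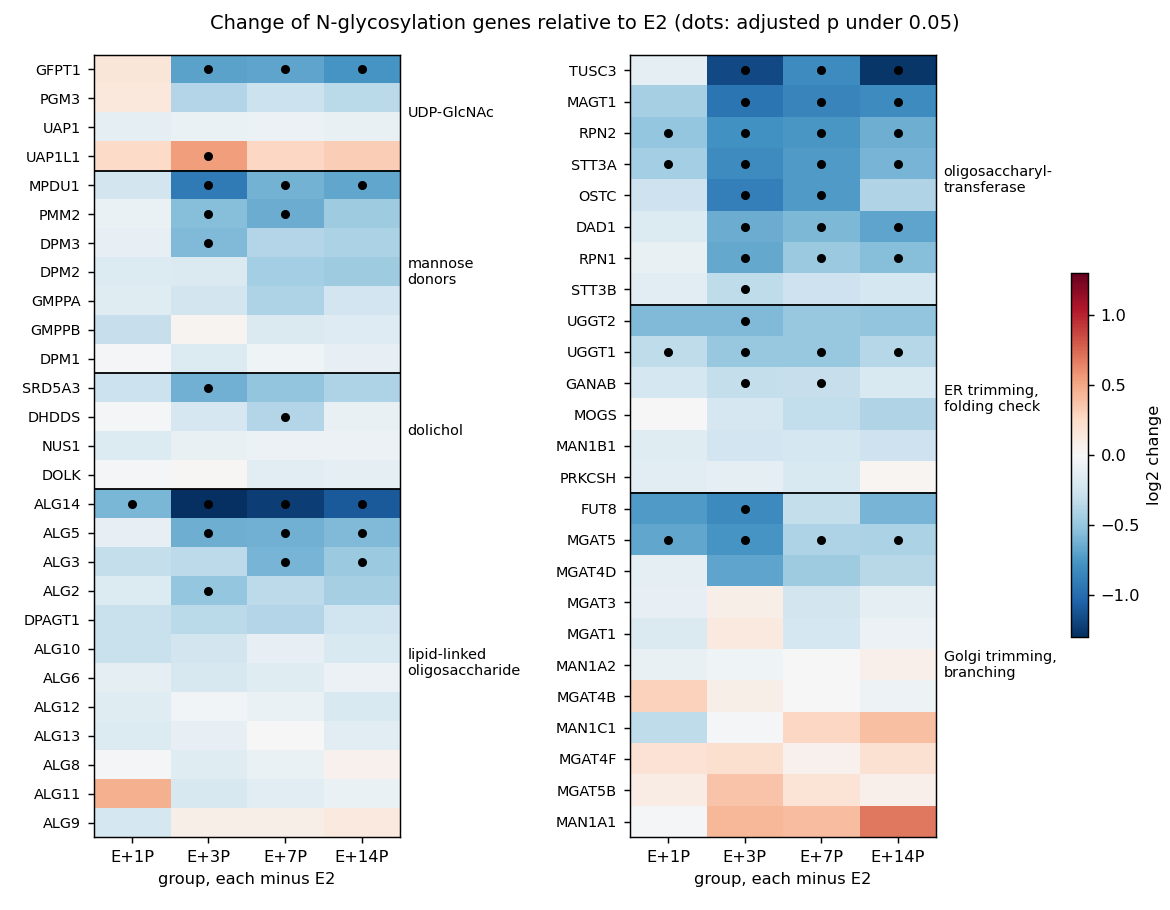
Log2 change of each of the 52 genes relative to E2 (colour, blue lower) at each time of progesterone, grouped by role, with a dot where the change was called. The 8 oligosaccharyltransferase genes are all blue and all carry a dot in E+3P, while 9 of the 11 Golgi genes carry no dot at any time. The mean log2 signal in E2 was 8.83 over the oligosaccharyltransferase genes and 5.93 over the Golgi genes. The part of signal in this contrast was not tested.

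The oligosaccharyltransferase joins a catalytic subunit, STT3A or STT3B, to a shared set of subunits. Of 8 measured members, 2 were lower in E+1P, 8 in E+3P, 7 in E+7P and 6 in E+14P, with median changes of -0.22, -0.80, -0.74 and -0.62. The highest group mean was that of E2 for 8 of 8. The F test called 7 of the 8.

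STT3A is the catalytic subunit that acts while the protein is being made. STT3A had log2 signals of 9.15, 9.33, 9.21, 9.45 and 9.54 in E2 and 9.21, 8.81, 8.92, 8.64 and 8.89 in E+1P. Its signals were 8.64, 8.67, 8.41, 8.74 and 8.14 in E+3P, 8.56, 8.50, 8.68, 8.72 and 8.52 in E+7P and 8.87, 8.75, 8.82, 8.71 and 8.53 in E+14P. In E+3P, E+7P and E+14P all 5 animals lay below every E2 animal, and in E+1P 4 of 5 did. The change was -0.44 ± 0.11 (adjusted p = 0.0338) in E+1P, -0.82 ± 0.11 (adjusted p = 0.000165) in E+3P, -0.74 ± 0.11 (adjusted p = 0.000536) in E+7P and -0.60 ± 0.11 (adjusted p = 0.00318) in E+14P. Each call was also refitted without each of the 10 animals compared, in turn. The call of STT3A in E+1P was lost in 7 of 10 such fits (adjusted p up to 0.112).

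STT3B, the catalytic subunit that also reaches sites left unmodified until later, was lower in E+3P with a change of -0.33 ± 0.08 (adjusted p = 0.0165). Its changes in E+1P, E+7P and E+14P were -0.15 ± 0.08, -0.27 ± 0.08 and -0.23 ± 0.08, not called. In E+3P its 5 animals, at 7.72 to 8.18, lay just below the lowest E2 animal, 8.20.

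RPN2 and RPN1 are the ribophorins, shared subunits of the complex. RPN2 had log2 signals of 10.04, 10.05, 10.21, 10.07 and 10.34 in E2 and 9.84, 9.56, 9.55, 9.50 and 9.72 in E+1P. Its signals were 9.53, 9.43, 9.35, 9.57 and 8.87 in E+3P, 9.32, 9.38, 9.39, 9.55 and 9.26 in E+7P and 9.64, 9.55, 9.48, 9.36 and 9.49 in E+14P. Every progesterone group lay wholly below E2 for RPN2. RPN2 changed by -0.50 ± 0.11 (adjusted p = 0.00898) in E+1P, -0.79 ± 0.11 (adjusted p = 0.00015) in E+3P, -0.76 ± 0.11 (adjusted p = 0.000258) in E+7P and -0.63 ± 0.11 (adjusted p = 0.00123) in E+14P. RPN1 was lower in E+3P, E+7P and E+14P with changes of -0.66 ± 0.11 (adjusted p = 0.000662), -0.48 ± 0.11 (adjusted p = 0.0101) and -0.55 ± 0.11 (adjusted p = 0.00388), and its change in E+1P was -0.10 ± 0.11, not called. All RPN1 animals of the 3 later groups lay below every E2 animal, whose lowest value was 9.52.

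DAD1 is a small shared subunit. DAD1 had log2 signals of 9.49, 9.73, 9.94, 10.05 and 9.87 in E2 and 9.65, 9.58, 9.81, 9.50 and 9.64 in E+1P. Its signals were 8.98, 9.20, 9.03, 9.56 and 9.08 in E+3P, 9.36, 9.01, 9.36, 9.45 and 8.95 in E+7P and 9.40, 9.26, 8.99, 8.93 and 9.03 in E+14P. All E+7P and E+14P animals lay below every E2 animal, and in E+3P replicate 4 was inside the E2 range. The changes were -0.64 ± 0.13 (adjusted p = 0.00324) in E+3P, -0.59 ± 0.13 (adjusted p = 0.00786) in E+7P and -0.69 ± 0.13 (adjusted p = 0.00256) in E+14P.

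OSTC is a subunit found with STT3A. OSTC had log2 signals of 8.43, 8.32, 7.68, 7.67 and 7.72 in E2 and 7.84, 7.54, 8.07, 7.48 and 7.53 in E+1P. Its signals were 7.21, 6.99, 7.11, 7.29 and 6.78 in E+3P, 7.29, 7.37, 7.30, 7.40 and 6.77 in E+7P and 7.60, 7.81, 7.48, 7.57 and 7.39 in E+14P. E+3P and E+7P lay wholly below E2, and E+14P overlapped it. The change was -0.89 ± 0.16 (adjusted p = 0.00205) in E+3P and -0.74 ± 0.16 (adjusted p = 0.0093) in E+7P, and in E+14P it was -0.39 ± 0.16, not called.

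MAGT1 and TUSC3 are the alternative oxidoreductase subunits of the STT3B form, which hold cysteines of the substrate protein. MAGT1 had log2 signals of 8.24, 8.60, 8.92, 8.56 and 8.48 in E2 and 8.18, 8.20, 8.10, 8.13 and 8.05 in E+1P. Its signals were 7.67, 7.63, 7.88, 7.74 and 7.12 in E+3P, 7.44, 7.77, 7.85, 7.89 and 7.58 in E+7P and 7.83, 7.83, 7.61, 7.92 and 7.51 in E+14P. All later groups lay below both E2 and E+1P, and E+1P lay below E2 without being called, with a change of -0.43 ± 0.13. MAGT1 changed by -0.95 ± 0.13 (adjusted p = 0.000165) in E+3P, -0.86 ± 0.13 (adjusted p = 0.000555) in E+7P and -0.82 ± 0.13 (adjusted p = 0.00088) in E+14P. TUSC3 had log2 signals of 6.67, 7.08, 7.14, 6.68 and 6.71 in E2 and 6.71, 6.69, 6.88, 6.62 and 6.75 in E+1P. Its signals were 5.31, 5.93, 5.17, 5.97 and 6.05 in E+3P, 5.94, 5.93, 5.998, 5.98 and 6.32 in E+7P and 5.36, 6.31, 5.99, 5.03 and 5.28 in E+14P. TUSC3 animals of the 3 later groups lay below every E2 and E+1P animal. TUSC3 changed by -1.17 ± 0.20 (adjusted p = 0.0013) in E+3P, -0.82 ± 0.20 (adjusted p = 0.0205) in E+7P and -1.26 ± 0.20 (adjusted p = 0.000959) in E+14P. The call in E+7P was lost in 1 of 10 such fits (adjusted p up to 0.0582), which was the fit without E2 replicate 2.

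**Figure D3:**
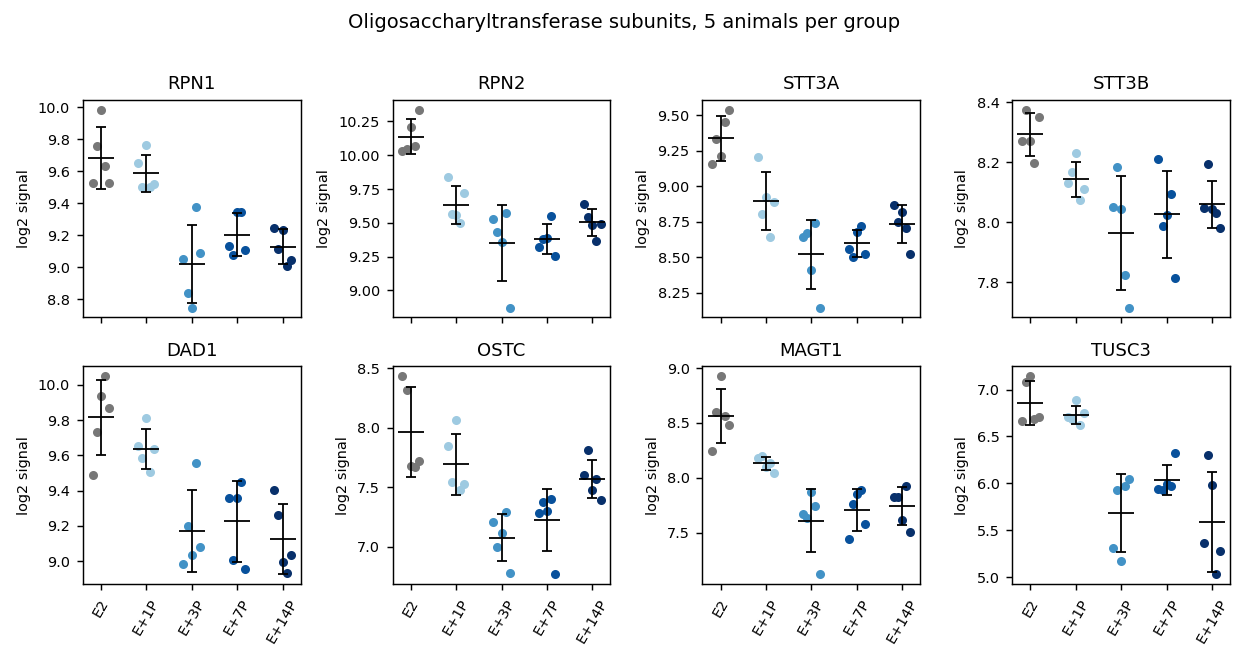
Log2 signal of each of the 8 oligosaccharyltransferase genes in the 5 animals of each group, from E2 to E+14P; points are animals, and the bar and error bar are the mean and its SD. The E+3P points lie at or below the lowest E2 point for each gene, except for 1 animal of DAD1.

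In E+3P the columnar epithelium mean was below that of every E2 animal in 3 of 5 animals. The 8 subunits stayed lower in E+3P when a columnar epithelium covariate was fitted, with a median change of -0.80, and without the 4 arrays that stood apart, with a median of -0.82. With only E+3P and E2 animals in the model, 7 of the 8 subunits and 10 of all 52 members were called, and STT3B was not. The share of named genes called in that fit was not counted. Over all 52 members the count of lower calls in E+3P was 12 with the columnar covariate, where 2.95% of named genes were lower, and 14 without the 4 arrays, where 4.18% were lower. The calls of the 8 subunits and of ALG14, MGAT5, MPDU1, UGGT1 and UAP1L1 in E+3P were kept with the columnar covariate, and the other 9 were lost. Among those 9, the change with the covariate stayed near its size without it for GANAB (-0.34, against -0.31), UGGT2 (-0.63, against -0.57) and DPM3 (-0.52, against -0.57). It was smaller for ALG2 (-0.18, against -0.50), FUT8 (-0.29, against -0.83), GFPT1 (-0.36, against -0.70), SRD5A3 (-0.32, against -0.62), ALG5 (-0.40, against -0.63) and PMM2 (-0.36, against -0.55). Among the kept calls, the change with the covariate was smaller for MPDU1 (-0.52, against -0.91), RPN1 (-0.50, against -0.66) and DAD1 (-0.54, against -0.64). It was larger for MAGT1 (-1.10, against -0.95), STT3B (-0.46, against -0.33) and UAP1L1 (0.65, against 0.55). It moved less for the other kept calls. The calls of DHDDS in E+7P (-0.35, against -0.38) and MGAT5 in E+14P (-0.38, against -0.41) were also lost with the covariate.

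Without the 4 arrays 7 calls in E+3P were lost. The change kept its size for GANAB (-0.31 both ways), DPM3 (-0.52, against -0.57) and PMM2 (-0.50, against -0.55). It was smaller for FUT8 (-0.46, against -0.83), ALG2 (-0.29, against -0.50), SRD5A3 (-0.40, against -0.62) and GFPT1 (-0.51, against -0.70). In E+14P the lost calls were those of ALG3 (-0.44, against -0.48), UGGT1 (-0.32, against -0.37) and MGAT5 (-0.26, against -0.41). In E+7P, which lost no array, the calls of DHDDS and GANAB were lost at unchanged values of -0.38 and -0.30.

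**Figure D4:**
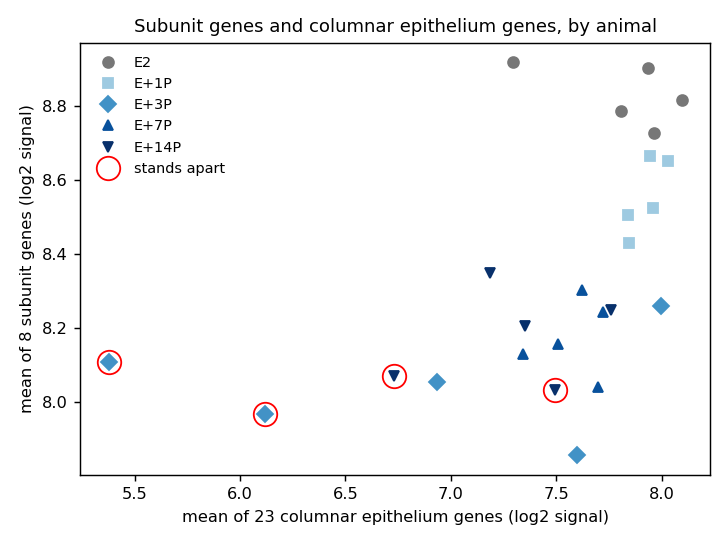
Mean log2 signal of the 8 subunit genes against that of 23 columnar epithelium genes, 1 point per animal and 1 shape per group, with a red ring on the 4 arrays that stand apart. The E+7P animals, with columnar means of 7.34 to 7.72, carry no ring and lie below all E2 and E+1P animals in the subunit mean.

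Assembly of the lipid-linked chain gave 1, 3, 3 and 3 lower members of 12 at the 4 times, and 8 of the 12 were called at no time. ALG14, which with ALG13 adds the second GlcNAc to dolichol, had the largest change of all members in E+3P and E+7P. ALG14 had log2 signals of 7.66, 7.54, 7.78, 7.88 and 7.62 in E2 and 7.23, 6.83, 7.43, 7.03 and 6.99 in E+1P. Its signals were 6.11, 6.41, 6.60, 6.54 and 6.26 in E+3P, 6.46, 6.28, 6.79, 6.33 and 6.48 in E+7P and 6.67, 6.79, 6.24, 6.57 and 6.74 in E+14P. All 4 progesterone groups lay below every E2 animal, and those of 3 days or more also lay below every E+1P animal. The change was -0.59 ± 0.13 (adjusted p = 0.0116) in E+1P, -1.31 ± 0.13 (adjusted p = 1.48e-05) in E+3P, -1.23 ± 0.13 (adjusted p = 4.94e-05) in E+7P and -1.09 ± 0.13 (adjusted p = 6.61e-05) in E+14P. In E+3P the ratio to E2 was 0.403. Its partner ALG13 was not called, with changes of -0.18 ± 0.16, -0.11 ± 0.16, 0.01 ± 0.16 and -0.15 ± 0.16 at the 4 times.

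ALG5 makes the dolichol-linked glucose that is used at the end of assembly. It was lower in E+3P with a change of -0.63 ± 0.13 (adjusted p = 0.00545), in E+7P with a change of -0.62 ± 0.13 (adjusted p = 0.00786) and in E+14P with a change of -0.57 ± 0.13 (adjusted p = 0.0157). The call in E+14P was lost in 1 of 10 such fits (adjusted p up to 0.0548), the fit without E2 replicate 4. ALG3, the first mannosyltransferase on the luminal side, was lower in E+7P with a change of -0.61 ± 0.13 (adjusted p = 0.00698) and in E+14P with a change of -0.48 ± 0.13 (adjusted p = 0.0365), and the call in E+14P was lost in 8 of 10 such fits (adjusted p up to 0.108). ALG2, a mannosyltransferase of the cytosolic side, was lower in E+3P with a change of -0.50 ± 0.13 (adjusted p = 0.0169). DPAGT1, which starts the chain, had a change of -0.35 ± 0.12 in E+3P that was not called. ALG11 had a change of 0.47 ± 0.16 in E+1P, with all 5 animals above every E2 animal, and was not called. ALG6, ALG8, ALG9, ALG10 and ALG12 were called at no time.

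For the mannose donors, 3 of 7 members were lower in E+3P, 2 in E+7P and 1 in E+14P. MPDU1 is needed for the use of dolichol-linked mannose and glucose. MPDU1 had log2 signals of 7.62, 8.02, 7.32, 7.99 and 7.85 in E2 and 7.57, 7.37, 7.38, 7.58 and 7.72 in E+1P. Its signals were 6.71, 6.24, 6.85, 7.32 and 7.11 in E+3P, 6.97, 6.94, 7.37, 7.19 and 7.27 in E+7P and 7.06, 6.94, 7.14, 6.87 and 7.41 in E+14P. The later groups lay low, and 1 animal of each reached the lowest E2 animal, 7.32. MPDU1 changed by -0.91 ± 0.16 (adjusted p = 0.00194) in E+3P, -0.61 ± 0.16 (adjusted p = 0.0339) in E+7P and -0.68 ± 0.16 (adjusted p = 0.0211) in E+14P. The call in E+7P was lost in 7 of 10 such fits (adjusted p up to 0.0958) and that in E+14P was lost in 5 of 10 such fits (adjusted p up to 0.0683). PMM2, the phosphomannomutase that makes mannose-1-phosphate, was lower in E+3P with a change of -0.55 ± 0.17 (adjusted p = 0.0431) and in E+7P with a change of -0.64 ± 0.17 (adjusted p = 0.035). The PMM2 call in E+3P was lost in 8 of 10 such fits (adjusted p up to 0.132) and that in E+7P was lost in 7 of 10 such fits (adjusted p up to 0.0996). DPM3, which stabilizes the dolichol-phosphate mannose synthase, was lower in E+3P with a change of -0.57 ± 0.14 (adjusted p = 0.015). DPM1 and DPM2, the other subunits of that enzyme, and GMPPA and GMPPB, which act on GDP-mannose synthesis, were called at no time.

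Of 4 UDP-GlcNAc genes, GFPT1 was lower at the 3 later times and UAP1L1 was higher in E+3P. GFPT1 is the enzyme that commits fructose-6-phosphate to the hexosamine pathway. GFPT1 had log2 signals of 9.45, 9.45, 9.06, 9.70 and 9.77 in E2 and 9.85, 9.51, 9.69, 9.41 and 9.75 in E+1P. Its signals were 8.64, 8.44, 8.58, 9.39 and 8.89 in E+3P, 8.71, 8.78, 8.91, 8.97 and 8.62 in E+7P and 8.82, 8.79, 8.77, 8.54 and 8.69 in E+14P. GFPT1 in E+7P and E+14P lay below every E2 animal, and in E+3P replicate 4 lay inside the E2 range. GFPT1 changed by -0.70 ± 0.15 (adjusted p = 0.00512) in E+3P, -0.69 ± 0.15 (adjusted p = 0.00749) in E+7P and -0.76 ± 0.15 (adjusted p = 0.00379) in E+14P, and the difference of E+3P from E+1P was -0.86 ± 0.15 (adjusted p = 0.00133). With the columnar covariate that last difference was -0.48 and was not called (adjusted p = 0.0874). UAP1L1 is related by sequence to UAP1, the pyrophosphorylase that makes UDP-GlcNAc. UAP1L1 had log2 signals of 5.13, 4.82, 4.46, 5.03 and 5.06 in E2 and 5.19, 5.36, 4.97, 4.96 and 5.28 in E+1P. Its signals were 5.23, 5.58, 5.17, 5.53 and 5.73 in E+3P, 5.17, 5.06, 5.05, 5.29 and 5.30 in E+7P and 5.03, 5.18, 5.21, 5.23 and 5.47 in E+14P. Its E+3P animals all lay above every E2 animal, with a change of 0.55 ± 0.13 (adjusted p = 0.0134), at signals near the 40th percentile of the array. PGM3 and UAP1, the other two enzymes of this group, were not called in any comparison with E2.

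In dolichol synthesis, SRD5A3, the polyprenol reductase, was lower in E+3P with a change of -0.62 ± 0.16 (adjusted p = 0.0162), a call that was lost in 1 of 10 such fits (adjusted p up to 0.0518), the fit without E+3P replicate 2. DHDDS, a subunit of the cis-prenyltransferase, was lower in E+7P with a change of -0.38 ± 0.11 (adjusted p = 0.0471), a call lost in 9 of 10 such fits (adjusted p up to 0.122). NUS1 and DOLK were called at no time.

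The 6 genes of trimming and the folding check had 1, 3, 2 and 1 lower members at the 4 times. UGGT1 puts a glucose back onto chains of misfolded proteins, which returns them to the folding lectins. UGGT1 had log2 signals of 7.64, 7.84, 7.72, 7.57 and 7.83 in E2 and 7.38, 7.58, 7.22, 7.38 and 7.39 in E+1P. Its signals were 7.17, 7.35, 7.12, 7.36 and 7.12 in E+3P, 7.25, 7.35, 7.26, 7.19 and 7.11 in E+7P and 7.38, 7.43, 7.37, 7.45 and 7.09 in E+14P. All 3 later groups lay below every E2 animal. UGGT1 changed by -0.33 ± 0.09 (adjusted p = 0.0458) in E+1P, -0.50 ± 0.09 (adjusted p = 0.00161) in E+3P, -0.49 ± 0.09 (adjusted p = 0.00213) in E+7P and -0.37 ± 0.09 (adjusted p = 0.0166) in E+14P. The call in E+1P was lost in 8 of 10 such fits (adjusted p up to 0.125) and that in E+14P was lost in 2 of 10 such fits (adjusted p up to 0.0513), those without E2 replicate 2 and E+14P replicate 5. UGGT2, its paralog, was lower in E+3P with a change of -0.57 ± 0.15 (adjusted p = 0.022), a call lost in 2 of 10 such fits (adjusted p up to 0.0591), those without E2 replicate 2 and E+3P replicate 3. Group means of UGGT2 were 7.15 in E2 and 6.57, 6.57, 6.66 and 6.63 at the 4 times. All 5 animals of each progesterone group lay below every E2 animal, though only the change in E+3P was called. GANAB, the catalytic subunit of glucosidase II, was lower with changes of -0.31 ± 0.09 (adjusted p = 0.0263) in E+3P and -0.30 ± 0.09 (adjusted p = 0.0491) in E+7P. The call in E+3P was lost in 4 of 10 such fits (adjusted p up to 0.0682) and that in E+7P was lost in 10 of 10 such fits (adjusted p up to 0.135). MOGS, MAN1B1 and PRKCSH were called at no time.

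In the Golgi group 9 of 11 members were called at no time, and the median change in E+3P was 0.07. That median was -0.15 with the columnar covariate, -0.15 with the 3 makeup covariates and -0.14 without the 4 arrays that stood apart. MGAT5 makes the branch that long lactosamine chains are often built on. MGAT5 had log2 signals of 8.26, 8.33, 7.94, 8.08 and 8.35 in E2 and 7.54, 7.45, 7.61, 7.38 and 7.64 in E+1P. Its signals were 7.31, 7.66, 7.32, 7.51 and 7.35 in E+3P, 7.66, 7.65, 7.78, 7.87 and 7.98 in E+7P and 7.93, 7.78, 8.08, 7.44 and 7.69 in E+14P. E+1P and E+3P lay below every E2 animal, while E+7P and E+14P overlapped E2. MGAT5 changed by -0.67 ± 0.11 (adjusted p = 0.00104) in E+1P, -0.76 ± 0.11 (adjusted p = 0.000276) in E+3P, -0.40 ± 0.11 (adjusted p = 0.0391) in E+7P and -0.41 ± 0.11 (adjusted p = 0.0392) in E+14P. The MGAT5 call in E+7P was lost in 8 of 10 such fits (adjusted p up to 0.103) and that in E+14P was lost in 7 of 10 such fits (adjusted p up to 0.128). FUT8, which adds the core fucose, was lower in E+3P with a change of -0.83 ± 0.22 (adjusted p = 0.022), a call lost in 2 of 10 such fits (adjusted p up to 0.0615), the fits without E+3P replicates 2 and 3. Its E+3P animals, at 6.88 to 8.65, overlapped E2, whose lowest animal was 8.36. At the other times FUT8 was not called, though all 5 animals of each group lay below every E2 animal. Their highest values were 8.05 in E+1P, 8.33 in E+7P and 8.19 in E+14P. The FUT8 change in E+1P, -0.73, was the largest fall of any member at that time. MAN1A1, a Golgi mannosidase, had a change of 0.69 ± 0.28 in E+14P that was not called. MGAT4D, at low signal, had a change of -0.69 ± 0.26 in E+3P that was not called. MAN1A2, MAN1C1, MGAT1, MGAT3, MGAT4B, MGAT4F and MGAT5B were called at no time. Of these, MAN1C1, MGAT1 and MGAT3 had low means over all arrays, at 5.16, 5.19 and 5.15 on the log2 scale. The mean signal in E2 was 5.93 over the Golgi genes and 8.83 over the oligosaccharyltransferase genes. Whether lower signal had a part in how few Golgi genes were called was not tested.

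**Figure D5:**
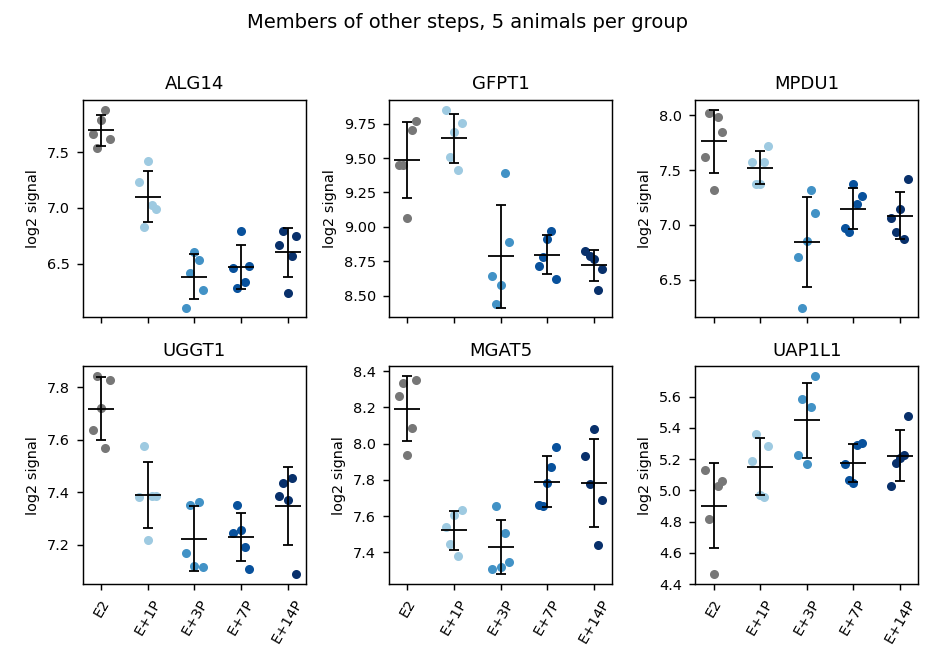
Log2 signal of ALG14, GFPT1, MPDU1, UGGT1, MGAT5 and UAP1L1 in the 5 animals of each group, from E2 to E+14P; points are animals, and the bar and error bar are the mean and its SD. ALG14 lies below every E2 animal in all progesterone groups, and UAP1L1 lies above every E2 animal in E+3P.

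The 11 members that were lower in E+3P than in E+1P were ALG11, ALG14, ALG5, DAD1, GFPT1, MAGT1, MPDU1, OSTC, PGM3, RPN1 and TUSC3. ALG11, another mannosyltransferase, was lower with a change of -0.68 ± 0.16 (adjusted p = 0.0188) and so was PGM3, of the hexosamine pathway, with a change of -0.51 ± 0.13 (adjusted p = 0.0275). Refitted with 1 animal left out in turn, the PGM3 call was lost in 5 of 10 such fits (adjusted p up to 0.0957), and the ALG11 call was lost in 1 of 10 such fits (adjusted p up to 0.0511). With the columnar covariate the change of ALG11 was -0.44 (adjusted p = 0.34) and that of PGM3 was -0.18 (adjusted p = 0.597). Without the arrays that stood apart they were -0.45 (adjusted p = 0.115) and -0.31 (adjusted p = 0.265). The calls kept with the columnar covariate were ALG14 and MAGT1, 2 of the 11, and without the arrays that stood apart GFPT1 and TUSC3 were also kept, 4 in all. Of named genes, 0.592% were lower with the columnar covariate and 1.46% without those arrays, against 4.13% in the main fit. With 1 animal left out the count of members called was 5 without E+1P replicate 1, 6 without E+3P replicate 2 and 7 without E+1P replicate 3 or 5. The makeup of the tissue also differed between these groups. The columnar mean was 5.38 to 7.995 in E+3P, against 7.84 to 8.03 in E+1P, with 4 of 23 genes lower and a median change of -1.13. The smooth muscle mean was 6.28 to 8.94 in E+3P, against 5.66 to 6.85 in E+1P, with 4 of 19 genes called higher, all 19 above 0 and a median change of 1.53. The ciliated mean was 4.54 to 6.62 in E+3P, against 6.18 to 6.92 in E+1P, with 2 of 19 genes lower and a median change of -0.96. The part of these differences in the calls was examined only through the covariates and the arrays left out.

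In all, 7 pairs of members from one gene family were compared by the difference of their log2 signals on each array, with an exact 2-sided permutation test over animals and adjustment over 28 tests. The pairs were taken after their values were seen, and 6 tests passed, all at the smallest p that 5 against 5 animals allow, 0.00794 (adjusted 0.0371). STT3A minus STT3B was 0.57 ± 0.14 in E+7P, against 1.04 ± 0.17 in E2 (SD, n = 5 each), and 0.67 ± 0.13 in E+14P, with 5 of 5 animals of both groups below every E2 animal. By the same exact test its changes of -0.29 in E+1P (adjusted p = 0.103) and -0.49 in E+3P (adjusted p = 0.0556) did not pass. In each of those 2 groups 4 of 5 animals lay below every E2 animal. TUSC3 minus MAGT1 rose by 0.30 in E+1P, and its changes at the later times did not pass, at -0.21 in E+3P (adjusted p = 0.57), 0.04 in E+7P (adjusted p = 0.897) and -0.44 in E+14P (adjusted p = 0.223), by the same exact test. MAN1A1 minus MAN1A2 rose by 0.40 in E+7P and UAP1L1 minus UAP1 by 0.37 in E+1P. The sixth passing test was MGAT5 minus MGAT5B in E+3P, and since MGAT5B lay below the signal filter its size is not read as a difference between the genes.

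Other genes that read, extend or respond to the chains were counted from lists, at the same times and against the same shares of named genes. Of 14 measured lectins and degradation factors that read N-glycans, 1, 10, 8 and 8 were lower at the 4 times and 0 higher, with a median change of -0.50 in E+3P. CALR, the calreticulin that binds glucosylated chains, changed by -0.71 ± 0.14 (adjusted p = 0.00491), -0.63 ± 0.14 (adjusted p = 0.00705), -0.69 ± 0.14 (adjusted p = 0.00461) and -0.59 ± 0.14 (adjusted p = 0.0163) at the 4 times. LMAN1, a cargo lectin between the endoplasmic reticulum and the Golgi, was lower in E+3P with a change of -0.90 ± 0.10 (adjusted p = 2.13e-05). PDIA3, the disulfide isomerase that works with calreticulin, was lower in E+3P with a change of -0.59 ± 0.08 (adjusted p = 0.000236).

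Of 6 other measured assembly genes, 0, 2, 0 and 1 were lower, with a median change of -0.24 in E+3P. GNPNAT1, of the hexosamine pathway, was lower in E+3P with a change of -0.53 ± 0.14 (adjusted p = 0.0186), and so was KRTCAP2, a subunit of the STT3A form, with a change of -0.28 ± 0.08 (adjusted p = 0.0349). DOLPP1, a dolichol pyrophosphatase, was lower in E+14P with a change of -0.57 ± 0.13 (adjusted p = 0.017). Of 20 genes for the terminal sugars, 1, 5, 2 and 4 were lower, with a median change of -0.23 in E+3P. GFUS, which makes GDP-fucose, was lower at all 4 times, with a change of -0.87 ± 0.18 (adjusted p = 0.00436) in E+3P. B4GALT4, a galactosyltransferase, was lower in E+3P with a change of -1.41 ± 0.26 (adjusted p = 0.00225).

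For mucin-type O-glycosylation, 25 genes gave 1, 5, 2 and 2 lower members and 1, 0, 1 and 0 higher, with a median change of -0.21 in E+3P. ST6GALNAC1, a sialyltransferase, was higher in E+1P with a change of 2.24 ± 0.54 (adjusted p = 0.0253), and GALNT5, which starts O-linked chains, was lower in E+3P with a change of -2.35 ± 0.37 (adjusted p = 0.000541). Of 20 unfolded protein response genes, 5, 8, 9 and 7 were lower, with a median change of -0.56 in E+3P. The 1 higher member was ATF6, a stress sensor, in E+1P with a change of 0.62 ± 0.15 (adjusted p = 0.0253). HSPA5, the main chaperone of the endoplasmic reticulum, changed by -0.54 ± 0.15 (adjusted p = 0.0609) in E+1P, not called, and by -0.58 ± 0.15 (adjusted p = 0.0181), -0.89 ± 0.15 (adjusted p = 0.00148) and -0.78 ± 0.15 (adjusted p = 0.00435) at the later times. XBP1, a transcription factor of the response, was called in E+3P alone, with a change of -1.23 ± 0.34 (adjusted p = 0.0254). Its E+3P animals, at 7.91 to 10.40, overlapped its E2 animals, at 8.86 to 10.59. Calls of genes outside the members were not read with makeup covariates or with arrays left out.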

How the data were processed

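Per the labels, RNA of frozen cervix was amplified, biotin-labelled and hybridised to an Affymetrix array. The authors deposited log2 signals, 40489 probe sets by 25 arrays, made with Affymetrix Expression Console according to the submitters' processing notes. Version, summarization and normalization: not given in the sources used here. No detection calls were used, so signal over background is unknown. The values ran over 0.618 to 13.69, from which the log2 scale was read, with array medians of 5.502 to 5.604. Precision is limited by the number of arrays.

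A single symbol was given for 16020 probe sets, several for 490 and none for 23979. Of a gene's probe sets, that of highest mean was taken. ALG9 and MGAT4A also share a symbol cell with another gene in 2 probe sets, which were left out.

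A linear model (limma 3.58.1, R 4.3.3) with 1 coefficient per group, a mean trend and 20 residual degrees of freedom was fitted to all arrays. Tests were 2-sided, with Benjamini-Hochberg adjustment across 40489 probe sets. Groups follow the labels of the arrays, since the design text gives other sizes. The model was tested on simulated data. Values of every animal are given for called members among the 5 largest falls or 3 largest rises against E2, or the 2 largest changes between consecutive times. Members and lists were chosen with earlier results of these data known. The alternatives were quantile normalization, centring, a signal filter, other variance settings, fewer groups, a 1.5-fold minimum, makeup covariates and leaving out arrays.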

Additional observations from a re-analysis of the deposited data

Results flagged for a closer look

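Among the members described by animal, 60 groups of 5 animals were searched for an animal far from the rest of its group, and 3 held one. Chance gives such an animal in about 1 of 20 groups. OSTC in E+7P replicate 5 was 6.77, where the next lowest animal of the group was 7.29. TUSC3 in E+7P replicate 5 was 6.32, where the next highest was 5.998. UGGT1 in E+14P replicate 5, an array that stood apart in the makeup of the epithelium, was 7.09, where the next lowest was 7.37.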

How the results depend on the processing

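Counts of members called are given in either direction. In E+1P the count was 5, and it was 8 with array weights, 8 without the arrays that stood apart and 0 against a 1.5-fold minimum. In E+3P it was 22, and it was 10 with the 2 groups alone, 1 against the minimum, 13 with the columnar covariate and 14 with 3 makeup covariates. In E+7P it was 17 and in E+14P 13, and both were 0 against the minimum. In E+3P against E+1P it was 11, and it was 3 with the 2 groups alone, 0 against the minimum, 4 with the smooth muscle covariate, 2 with the columnar covariate, 2 with 3 covariates and 4 without the arrays that stood apart. In the last 3 of these settings 0.592%, 0.792% and 1.46% of named genes were lower, against 4.13% in the main fit. Fewer arrays leave fewer degrees of freedom, and the cause of the other moves was not tested. Leaving out 1 animal at a time gave 3 to 5 in E+1P, 19 to 24 in E+3P, 11 to 15 in E+7P, 9 to 15 in E+14P, 5 to 13 in E+3P against E+1P and 14 to 21 for the F test. Calls kept in all of these fits were 3 of 5, 17 of 22, 11 of 17, 8 of 13 and 4 of 11 in that order. No called change reversed under the alternatives run. Centring moved the median of all probe sets by under 0.1 in each comparison. The 1.5-fold minimum and the fit of the groups alone were not run for the F test. Each member has 1 probe set, so the choice of probe set could not change a value. Quantile normalization, tried after the data were seen, kept all 6 calls within gene families. Without the arrays that stood apart 0 of these exact tests passed, with a lowest adjusted p of 0.0556. The 6 changes kept their sign. Groups of 3 animals cannot reach the p of 0.00794 and raise the adjusted p of the other tests, so this setting cannot decide the calls. No paired analysis was possible because the replicate numbers follow the order of deposit and pair no animals.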
